A study of Mus musculus with 6 samples.

Results

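The 35 genes described here are the smooth muscle and fibroblast genes of whole mouse ileum: 19 genes of the contractile apparatus of smooth muscle and 16 genes of the extracellular matrix and of the fibroblasts that make it. They were taken by gene symbol from the array's gene annotation, each at its brightest probe set with exactly 1 symbol. All 35 had such a probe set, and each had only 1, among 19938 genes measured in all. Ileum was compared between 3 control mice, which carried Villin-CreERT2 alone, and 3 mice that carried Villin-CreERT2 and GATA6 flox/flox alleles, labelled GATA6 KO. Tamoxifen was given for 5 days to every mouse of both groups, at an age of 6 to 8 weeks, and the ileum was taken 28 days later, at 10 to 12 weeks. Each mouse gave 1 Affymetrix array of total RNA, and the values are log2 signals as the authors deposited them. Villin drives the recombinase in the intestinal epithelium, so the labels put no deletion in muscle cells or fibroblasts, while the RNA came from the entire wall of the ileum.

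Smooth muscle of the gut wall contracts when calcium activates myosin light chain kinase and myosin pulls on actin filaments, which are anchored at dense bodies and at junctions of the cell membrane. Fibroblasts lie between muscle and epithelium and in the core of each villus, where they deposit fibrillar collagen, proteoglycans and adhesive glycoproteins and send signals to crypts. Serum response factor drives many contractile genes through the CArG box in their promoters.

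Both sets were modestly higher in the KO-labelled arrays, and few single genes passed the test. The median log2 fold change was 0.36 over the 19 contractile genes, 1.28-fold, and 0.38 over the 16 matrix genes, 1.30-fold, against -0.0043 over all genes tested. The fitted difference was above 0 for 18 contractile and 16 matrix genes, against 49.0% of all genes and 59.8% of brighter genes, those with a mean signal of at least 3.39, the median of all probe sets. At a limma adjusted p under 0.05, Tagln and Pgm5 of the contractile set and Dpt of the matrix set rose, which is 10.5% and 6.25% of the sets beside 4.99% of all genes and 7.78% of brighter genes. Shares this near the background rest on 1 or 2 genes. The contractile gene Ldb3 fell, and 3.25% of all genes were called lower. The other 31 did not pass. In RNA of a whole tissue, more cells of a type and more RNA per cell cannot be told apart.

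At an unadjusted p under 0.05, 15 contractile genes (78.9%) and 8 matrix genes (50.0%) were higher, beside 14.4% of all genes, and Ldb3 was the one lower gene, beside 10.3%. All 3 KO-labelled arrays lay above all 3 controls for 12 contractile genes (63.2%) and 7 matrix genes (43.8%), beside 16.8% of all and 25.4% of brighter genes, and Ldb3 was the one gene with the groups the other way round, beside 12.6%. Signal was spread more widely on the KO-labelled arrays, and bright genes as a whole sat slightly higher there. Whether the one follows from the other was not tested. With quantile normalization the set medians were 0.33 for contractile and 0.38 for matrix genes. Among these 11984 brighter genes the median log2 fold change was 0.06 and 21.9% were higher at an unadjusted p under 0.05. All 35 genes belong to that brighter part.

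**Figure D1:**
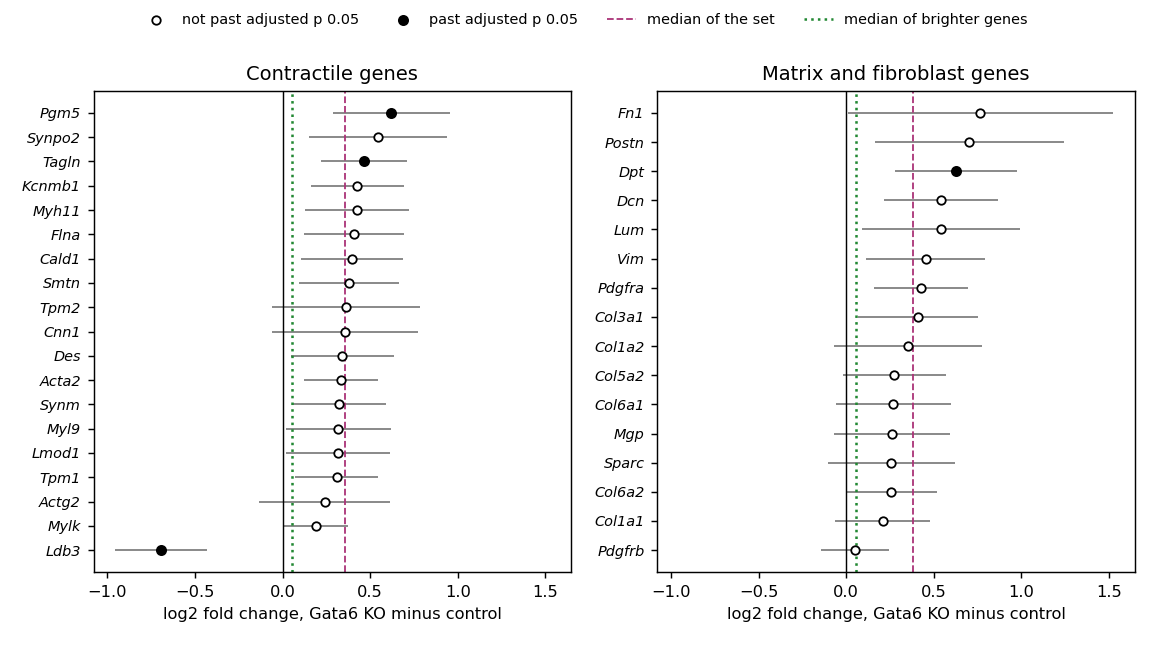
Log2 fold change of each gene, Gata6 KO minus control, for the 19 contractile genes (left) and the 16 matrix and fibroblast genes (right). Points are limma estimates from 3 arrays per group, bars are 95% confidence intervals, filled points passed an adjusted p of 0.05, and the lines mark the median of each set (0.36 and 0.38) and that of the brighter genes (0.06). All genes except Ldb3 lie to the right of 0.

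Among all probe sets, arrays correlated at 0.987 to 0.992 within a group and at 0.980 to 0.984 between groups. Gata6 itself read 6.31, 6.33 and 6.50 in controls and 6.93, 6.81 and 6.86 in KO-labelled arrays, so its signal rose where the label would have it fall, by 0.49 (SE 0.08, limma adjusted p = 0.0162), without overlap. That call was lost when control replicate 1 (0.0501) or Gata6 KO replicate 1 (0.0584), 2 (0.0573) or 3 (0.0623) was left out; whether these probes lie in the deleted part is not known here. Control replicate 3 read 2.31 for Xist and 5.30 for the Y-linked Eif2s3y, against at least 7.39 and at most 0.61 on the other arrays, the signals of a male among females. The labels give no sex, and its part in the results was not tested beyond leaving that array out. The 15 pan-epithelial markers had a summed linear signal of 11949 to 12962 in controls and 12576 to 13897 in KO-labelled arrays. Of 9 skeletal muscle markers none passed, with none higher and 1 lower at an unadjusted p under 0.05, and 5 of them lay below the array medians. Their part in the contractile signal was not tested.

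Of the 16 contractile genes with a RefSeq promoter window, 2 held an exact match to the CArG box, and their fitted differences had opposite signs, so both sequences are shown. They are RefSeq promoter bases of GRCm38.p6 upstream of the start site, 5′ to 3′ on the strand of the gene, with the match in capitals. The window of Ldb3 is chr14:34588677-34588746 on the minus strand, and that of Myl9 is chr2:156775273-156775342 on the plus strand.
Ldb3: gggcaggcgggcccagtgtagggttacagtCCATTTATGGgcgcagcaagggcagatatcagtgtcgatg
Myl9: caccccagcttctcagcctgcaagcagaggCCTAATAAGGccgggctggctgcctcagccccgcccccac

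The CArG pattern, which is its own reverse complement, was searched in windows from 250 bases before to 50 bases after each start site. Actg2, Myh11 and Tagln had no window in the table, and neither did 7 matrix genes. A match was held by 2 of 16 contractile (12.5%) and 0 of 9 matrix genes, beside 1.81% of 27025 genes. On a list of other contractile and junction proteins, 6 of 26 genes with a window held one. That was the highest share of the related lists. A match was held by 0 of 15 genes of calcium, cGMP and excitation and by 1 of 9 regulators around serum response factor. The related lists of matrix and signalling genes had at most 1 such gene each. TATAAA, searched on both strands, was present for 2 of the 16 contractile genes (12.5%), and for 4 of the 9 matrix genes (44.4%), namely Col3a1, Dpt, Postn and Vim, beside 15.7% of all genes. Neither Ldb3 nor Myl9 held TATAAA, so the matches do not overlap. A match is a string of letters and was not tested as a binding site. Only exact matches within these windows were counted, so a gene without one may still hold a variant or a more distant box.

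Genes of the actin filament, its motor and the switch of the motor had log2 fold changes of 0.19 to 0.42, and none passed. Acta2, the smooth muscle alpha actin also made by myofibroblasts, read 10.44, 10.58 and 10.42 in controls and 10.69, 10.89 and 10.86 in KO-labelled arrays. The groups did not overlap, and the difference of 0.33 (SE 0.09, n = 3 per group) did not pass (limma adjusted p = 0.0675). Myh11, the smooth muscle myosin heavy chain, read 9.13, 9.38 and 9.12 against 9.41, 9.81 and 9.67, also without overlap. Its log2 fold change was 0.42 (SE 0.13, limma adjusted p = 0.0903). Actg2, the enteric gamma actin, overlapped between groups, since KO-labelled replicate 1 at 8.51 lay below control replicates 2 and 3 at 8.76 and 8.62. It differed by 0.24 (SE 0.16), the second smallest change of the set after that of Mylk, leaving Ldb3 aside. Acta2 and Actg2 encode near-identical proteins, and how far their probes tell them apart was not tested.

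Myosin is switched on by its light chains. The regulatory light chain gene Myl9 read 8.91, 9.11 and 9.12 in controls and 9.11, 9.52 and 9.47 in KO-labelled arrays, where only replicate 1 reached down into the control range. Its log2 fold change was 0.32 (SE 0.13, limma adjusted p = 0.183). Mylk, the kinase that phosphorylates the light chain, was very even within groups, at 7.07, 7.15 and 7.13 against 7.21, 7.32 and 7.39. All 3 KO-labelled values lay above the controls, yet the difference was 0.19 (SE 0.08, limma adjusted p = 0.198), with a 95% confidence interval from 0.0027 to 0.38.

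Proteins bound along the actin filament included the gene with the clearest rise. Tagln, also called SM22 alpha, an actin-bundling protein and an early marker of smooth muscle, read 8.51, 8.71 and 8.56 in controls and 8.88, 9.18 and 9.12 in KO-labelled arrays. It rose 1.38-fold (log2 fold change 0.46, SE 0.10, limma adjusted p = 0.0388). The call was lost when control replicate 1 (0.110) or 3 (0.128) or Gata6 KO replicate 2 (0.142) or 3 (0.125) was left out. The log2 fold change stayed between 0.40 and 0.55 over the fits that leave out 1 array.

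Cnn1, calponin, which dampens the myosin motor, split the KO-labelled arrays: replicate 1 read 7.94, below every control at 7.97 to 8.10, while replicates 2 and 3 read 8.59 and 8.61. Over all arrays its log2 fold change was 0.36 (SE 0.18, limma adjusted p = 0.269), and without Gata6 KO replicate 1 it was 0.57 with an adjusted p of 0.0237. The caldesmon gene Cald1 had a log2 fold change of 0.40 (SE 0.12) and groups that did not overlap. The tropomyosins Tpm1 and Tpm2, which lie in the groove of the actin filament, had log2 fold changes of 0.31 (SE 0.10) and 0.36 (SE 0.18). Those of Smtn, smoothelin, and Lmod1, leiomodin, which nucleates actin filaments, were 0.38 (SE 0.12) and 0.32 (SE 0.13). None of the 5 passed, with limma adjusted p between 0.103 and 0.268.

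Of the genes that anchor filaments, 1 rose and 1 fell. Pgm5, aciculin, a protein of muscle adherens junctions and dense plaques, read 6.87, 7.39 and 6.98 in controls and 7.58, 7.74 and 7.79 in KO-labelled arrays. It rose 1.54-fold (log2 fold change 0.62, SE 0.14, limma adjusted p = 0.0420). The call was lost without any 1 of control replicates 1 (0.110) and 3 (0.142) and Gata6 KO replicates 1 (0.0872), 2 (0.149) and 3 (0.132).

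Ldb3, a PDZ and LIM domain protein of the muscle Z-disc also called Cypher or ZASP, went the other way. It read 5.23, 5.48 and 5.59 in controls and 4.80, 4.63 and 4.78 in KO-labelled arrays, with a gap between the groups wider than the spread within either. It fell by 0.69 on the log2 scale (SE 0.11, limma adjusted p = 0.0124), 1.62-fold. The call was lost without Gata6 KO replicate 2 (0.0618) and held in the other 5 fits that leave out 1 array.

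Synpo2, synaptopodin 2, an actin-bundling protein of dense bodies, read 6.17, 6.25 and 6.12 in controls and 6.32, 6.87 and 6.98 in KO-labelled arrays. Its controls lay close together, and the KO-labelled values did not overlap them but spread widely. The log2 fold change was 0.54 (SE 0.17, limma adjusted p = 0.101), and 0.75 without Gata6 KO replicate 1 (adjusted p = 0.0137). Flna, filamin A, which crosslinks actin, and the intermediate filament genes Des and Synm, desmin and synemin, had log2 fold changes of 0.41 (SE 0.12), 0.34 (SE 0.12) and 0.32 (SE 0.11), and limma adjusted p of 0.0922, 0.150 and 0.136. The groups did not overlap for Flna and Synm and did for Des.

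Kcnmb1, the smooth muscle beta subunit of the large conductance calcium-activated potassium channel, which relaxes the cell, read 4.38, 4.68 and 4.32 in controls and 4.83, 4.99 and 4.84 in KO-labelled arrays. The groups did not overlap, and the log2 fold change was 0.43 (SE 0.11, limma adjusted p = 0.0646). Without control replicate 2, the highest control, it was 0.54 with an adjusted p of 0.0281.

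**Figure D2:**
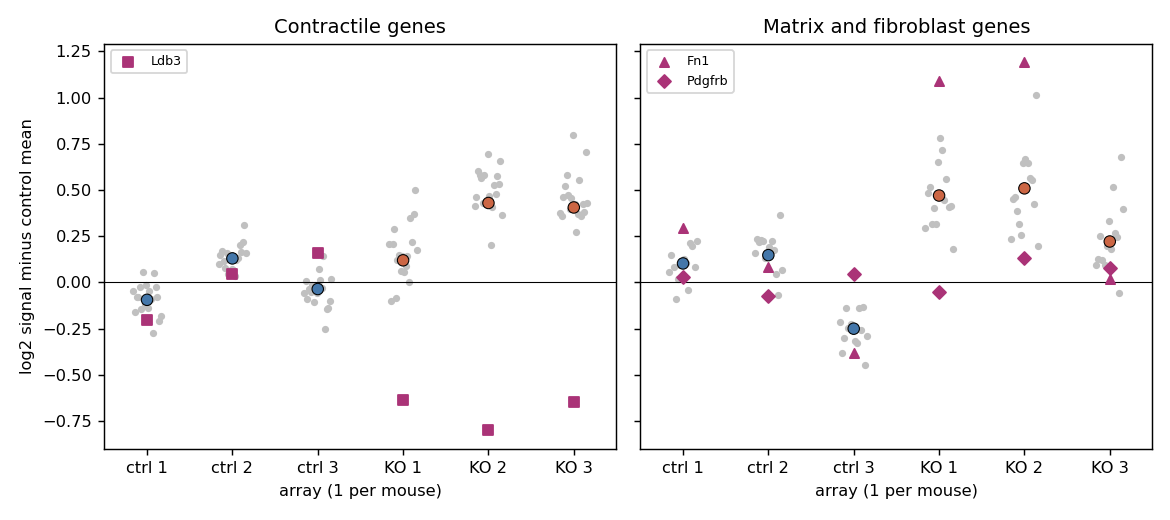
Log2 signal of each gene minus its own control mean, on each of the 6 arrays (1 per mouse), for the contractile set (left) and the matrix set (right). Small grey points are genes, large points are set means (controls blue, KO-labelled arrays orange), and Ldb3, Fn1 and Pdgfrb are drawn as a square, a triangle and a diamond. Contractile genes sit lowest among the KO-labelled arrays in replicate 1, and matrix genes in replicate 3.

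The collagen genes were all higher in the fit, and none passed. Col1a1, a chain of type I collagen, read 8.19, 8.30 and 7.92 in controls and 8.43, 8.37 and 8.23 in KO-labelled arrays, so KO-labelled replicate 3 lay within the control range. The difference, 0.21 (SE 0.12) on the log2 scale, was the smallest of the collagen genes (limma adjusted p = 0.319). Col1a2, the other chain, had a log2 fold change of 0.35 (SE 0.18), and Col5a2, a type V chain that controls fibril width, one of 0.28 (SE 0.12). For Col3a1, the type III chain of pliable tissue, the values were 8.25, 8.38 and 7.86 against 8.68, 8.63 and 8.42, without overlap, and the log2 fold change was 0.41 (SE 0.15, limma adjusted p = 0.141). Col6a1 and Col6a2, chains of the beaded filaments around cells, had log2 fold changes of 0.27 (SE 0.14) and 0.26 (SE 0.11).

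Dpt, Dcn and Lum, which encode small proteins that bind collagen fibrils, had larger fitted differences than any of the 6 collagen genes, which was not tested. Dpt, dermatopontin, which speeds fibril assembly, read 7.25, 7.37 and 6.81 in controls and 7.86, 7.79 and 7.66 in KO-labelled arrays. It rose 1.55-fold (log2 fold change 0.63, SE 0.15, limma adjusted p = 0.0468). The call was lost without control replicates 1 (0.0919) or 3 (0.0704) or any 1 of Gata6 KO replicates 1 to 3 (0.142, 0.155 and 0.0979), and when all probe sets were tested singly (0.0503).

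Dcn, decorin, a proteoglycan that coats collagen fibrils, read 9.72, 9.76 and 9.37 in controls and 10.27, 10.26 and 9.95 in KO-labelled arrays. The groups did not overlap, and the log2 fold change was 0.54 (SE 0.14, limma adjusted p = 0.0578). Lum, lumican, a keratan sulfate proteoglycan, had the same log2 fold change of 0.54 with a larger error (SE 0.19, limma adjusted p = 0.141). KO-labelled replicate 3, at 6.16, fell between the controls at 5.66 to 6.17.

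The adhesive glycoprotein Fn1 and the matricellular Postn had the largest differences of the matrix set, with its largest errors. Fn1, fibronectin, which links cells to collagen, read 8.35, 8.14 and 7.68 in controls and 9.15, 9.25 and 8.08 in KO-labelled arrays. Replicates 1 and 2 of the KO-labelled group lay far above the controls and replicate 3 lay among them. The log2 fold change of 0.77 (SE 0.32) did not pass (limma adjusted p = 0.199), and without Gata6 KO replicate 3 it was 1.14 with an adjusted p of 0.0393.

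Postn, periostin, a protein of pericryptal fibroblasts and of tissue under repair, read 6.63, 6.91 and 6.09 in controls and 6.95, 7.56 and 7.22 in KO-labelled arrays. The groups did not overlap, but the highest control and the lowest KO-labelled value nearly touched. Its log2 fold change was 0.70 (SE 0.23, limma adjusted p = 0.116). Sparc, which binds collagen and calcium, and Mgp, matrix Gla protein, an inhibitor of calcification, each had a log2 fold change of 0.26 (SE 0.15 and 0.14) and overlapping groups.

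Of the genes that mark the cells themselves, the PDGF receptors had unlike values. Pdgfra, the receptor of subepithelial fibroblasts and telocytes, read 7.33, 7.55 and 7.23 in controls and 7.82, 7.93 and 7.64 in KO-labelled arrays, without overlap. Its log2 fold change was 0.43 (SE 0.12, limma adjusted p = 0.0687). Pdgfrb, the receptor of pericytes and mural cells, read 6.01, 5.91 and 6.03 against 5.94, 6.12 and 6.06, and the groups overlapped. Its log2 fold change was 0.05 (SE 0.08), with a 95% confidence interval from -0.14 to 0.25, and it changed sign under 3 of the 18 alternatives tried. The difference between the receptors was not tested. Vim, vimentin, the intermediate filament of mesenchymal cells, read 9.09, 8.93 and 8.62 against 9.44, 9.43 and 9.13, without overlap. The log2 difference of 0.45 (SE 0.14) did not pass (limma adjusted p = 0.109).

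**Figure D3:**
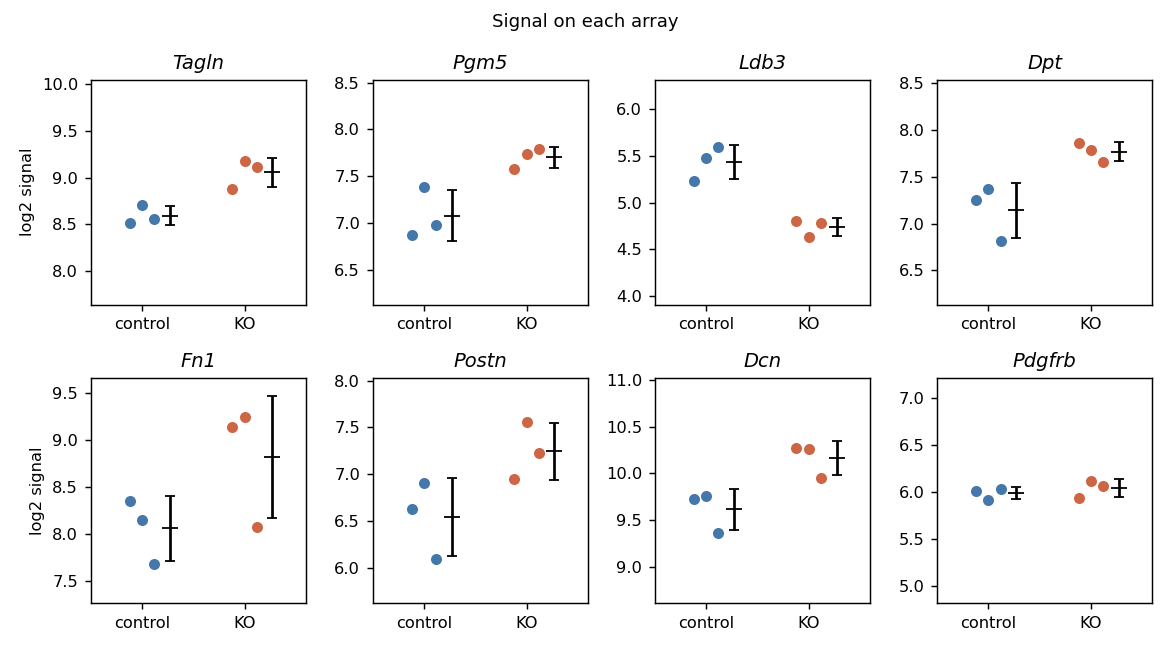
Log2 signal of 8 genes on each array, controls in blue and KO-labelled arrays in orange, with the mean and SD of each group (n = 3) as a black mark and bar; every panel spans the same range of log2 units. Ldb3 is the one gene lower in the KO-labelled arrays, Fn1 has 1 KO-labelled array, at 8.08, among the controls, and Pdgfrb overlaps between the groups.

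The contrast of contractile with matrix genes was small between the groups and wide between mice. The mean of the 19 contractile genes minus the mean of the 16 matrix genes was -0.14, 0.04 and 0.27 in controls and -0.29, -0.02 and 0.24 in KO-labelled arrays. The groups overlapped from -0.14 to 0.24, with 0.06 ± 0.21 in controls and -0.03 ± 0.27 in KO-labelled arrays (SD, n = 3). The median fold changes of the sets differed by -0.03 on the log2 scale. The difference of means on each array was lower by 0.08 in the KO-labelled group, and its SD between mice of 1 group was 0.24. With 3 arrays per group, larger differences between the sets could have gone unseen.

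Within a group, replicate 2 had the highest mean of both sets, and the lowest mean of each set lay in a different mouse. The contractile mean was 7.28, 7.51 and 7.34 in controls and 7.50, 7.81 and 7.78 in KO-labelled arrays. The groups overlapped, since KO-labelled replicate 1 lay just below control replicate 2. KO-labelled replicate 1 was the lowest array of its group for 18 of 19 contractile genes, Ldb3 being the exception. The matrix mean was 7.42, 7.47 and 7.07 in controls and 7.79, 7.83 and 7.54 in KO-labelled arrays, without overlap. Control replicate 3 was the lowest control for 15 of 16 matrix genes, all but Pdgfrb, and KO-labelled replicate 3 the lowest of its group for 13 of 16, all but Pdgfrb, Postn and Mgp.

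Leaving out 1 array moved the counts both ways, in fits that also have fewer arrays. The 15 contractile genes higher at an unadjusted p under 0.05 became 9 and 8 when control replicate 1 or 3 was left out, and 6 and 9 when Gata6 KO replicate 2 or 3 was. The 8 matrix genes became 5 when control replicate 3 was left out, and 4 and 3 when Gata6 KO replicate 1 or 2 was. Over all 6 such fits these counts ran from 6 to 18 and from 3 to 11. Without control replicate 3, the array with male signals and the lowest matrix mean, the median matrix log2 fold change was 0.23 and the contractile one 0.33. The medians ran from 0.28 to 0.45 for contractile and from 0.23 to 0.48 for matrix genes.

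**Figure D4:**
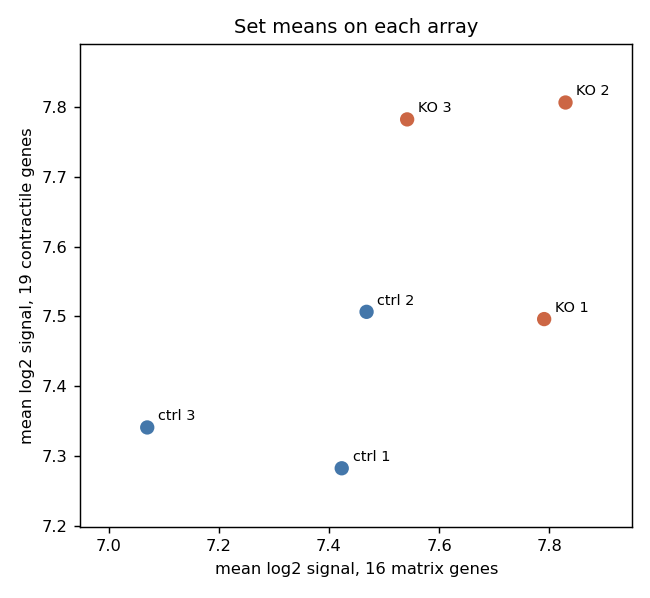
Mean log2 signal of the 19 contractile genes (vertical axis) against that of the 16 matrix genes (horizontal axis) on each array, controls in blue and KO-labelled arrays in orange. KO-labelled replicate 1 is at 7.79 for matrix but 7.50 for contractile genes, and KO-labelled replicate 3 at 7.54 and 7.78, while control replicate 3 has the lowest matrix mean, 7.07.

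Like the matrix set, macrophage markers had their lowest mean in replicate 3 of each group. It was 6.06, 5.90 and 5.36 in controls and 6.43, 6.20 and 5.77 in KO-labelled arrays. Their highest mean lay in replicate 1 of each group, that of the matrix set in replicate 2. The low replicate 3 was not particular to macrophages. Lymphocyte markers and the lists of other collagens, other matrix glycoproteins, collagen processing, TGF-beta and PDGF signalling and mucosal fibroblast signals shared it. Of 9 macrophage markers Cd14 alone rose, by 1.23 (SE 0.23, limma adjusted p = 0.0210), and the summed signal of the list was 461 to 729 in controls and 550 to 878 in KO-labelled arrays. None of these markers lay below the array medians. Their part in the matrix result was not tested.

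Related genes of muscle were higher by a similar median, with 24 of 31 further genes of the contractile apparatus and its junctions higher at an unadjusted p under 0.05 (77.4%, beside 14.4% of all and 21.9% of brighter genes), none lower, and a median log2 fold change of 0.34. After adjustment 4 rose (12.9%) and none fell, beside 4.99% and 3.25% of all genes and 7.78% and 4.42% of brighter genes, shares that also stand behind the counts of the other lists. Itga7, a laminin receptor of muscle, rose by 0.78 (SE 0.09, limma adjusted p = 0.00433), and Parva, alpha-parvin, which links integrins to actin, by 0.52 (SE 0.08, limma adjusted p = 0.0121). Sgce and Filip1l were the others. Of 17 genes of calcium, cGMP and excitation 1 rose and 1 fell (5.88% each), near those shares, with a median of 0.22. Kcnma1, the channel pore that pairs with Kcnmb1, rose by 0.37 (SE 0.08), while Kcnmb4, another beta subunit, fell by 0.42 (SE 0.10) to 3.06, a signal under the array medians that leaves its size uncertain. Of 14 regulators around serum response factor, which include Srf and Myocd, Tead1 alone rose, by 0.35 (SE 0.08), and the median was 0.12.

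Related genes of the matrix differed from list to list. None of 14 other collagens passed, 1 was higher and 1 lower at an unadjusted p under 0.05, and the median log2 fold change was 0.06, close to that of the brighter genes. Of 29 further glycoproteins, proteoglycans and elastic fibre genes 3 rose and none fell, with a median of 0.21. Thbs1 and Thbs2, thrombospondins that modulate adhesion, each rose by 0.57 (SE 0.12 and 0.11), and Lamb2 was the third. Of 18 genes that process or remodel collagen 3 rose and none fell, and their median of 0.47 was above that of the matrix set. Crtap, a part of the collagen prolyl 3-hydroxylation complex, rose by 0.50 (SE 0.08), Mmp14, a membrane-bound collagenase, by 0.64 (SE 0.12), and Timp2 was the third. The 6 called genes had limma adjusted p between 0.0112 and 0.0490.

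Among 20 genes of TGF-beta and PDGF signalling 2 rose and 1 fell, with a median of 0.25. The ligand Tgfb3 rose by 0.52 (SE 0.09), the receptor Tgfbr1 was the other that rose, and Tgfbi, a secreted adhesion protein induced by TGF-beta, fell by 0.94 (SE 0.11, limma adjusted p = 0.00409). Of 16 signals of mucosal fibroblasts 2 rose. Grem1, a BMP antagonist made by cells beneath the crypts, rose by 0.60 (SE 0.07, limma adjusted p = 0.00440), and Wnt5a, a Wnt ligand of villus mesenchyme, by 0.84 (SE 0.17, limma adjusted p = 0.0312).

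Some markers of other cell types of the muscular and outer wall rose. Of 6 markers of interstitial cells of Cajal, the pacemaker cells of the muscle layer, 3 rose: Ano1, the calcium-activated chloride channel, by 0.84 (SE 0.10), Kit by 0.67 (SE 0.10), and Gja1. Their limma adjusted p ran from 0.00378 to 0.0324, and the summed signal of the list was 184 to 215 in controls and 254 to 291 in KO-labelled arrays. Of 6 markers of mesothelium, the outer lining of the gut, 3 rose: Upk3b by 0.61 (SE 0.10), Msln by 0.54 (SE 0.11), and Gpm6a, at summed signals of 153 to 181 and 211 to 272. Of 12 markers of enteric neurons and glia 2 neuronal ones rose, Stmn2 by 0.74 (SE 0.11) and Prph by 0.41 (SE 0.08). The list had a median log2 fold change of 0.12 and summed signals of 146 to 164 and 184 to 207, and 5 of the 12 lay below the array medians. The log2 fold changes of its glial markers ran from -0.07 to 0.06. The part of these cells in the higher contractile and matrix signal was not tested.

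Markers of vessels, lymphocytes and fat had 1 call among them, although fat markers had a high median. None of 13 endothelial markers passed, and their median was 0.08, with 1 higher at an unadjusted p under 0.05. Of 7 pericyte markers Rgs5 alone passed, rising by 0.49 (SE 0.09), at a median of -0.01. At an unadjusted p under 0.05, 3 of the 7 were higher and 1 lower, and 2 lay below the array medians. None of 9 lymphocyte markers passed, with 1 higher at an unadjusted p under 0.05 and a median of 0.13. None of 5 adipocyte markers passed, with 1 higher and 1 lower at that level. Their median of 0.58 was the largest of the lists, at summed signals of 85.7 to 182 in controls and 176 to 211 in KO-labelled arrays, and 1 of the 5 lay below the array medians. Retn (0.89, SE 0.26), Adipoq (0.82, SE 0.42) and Plin1 (0.58, SE 0.28) had the largest differences, and control replicate 2 had the lowest mean of the list, 3.81 beside 4.53 to 4.90 on the other arrays. The part of fat in the higher contractile and matrix signal was not tested. Of the pan-epithelial markers 3 rose and 1 fell, with a median of 0.11, Esrp1, an epithelial splicing factor, rising by 0.80 (SE 0.07), Krt19 and Ehf by less, and Vil1, villin, falling by 0.41 (SE 0.08). Of the 32 called genes on these related and marker lists, 6 kept the call in every fit that leaves out 1 array, namely Itga7, Tgfbi, Grem1, Ano1, Stmn2 and Esrp1. No direction could turn in such a fit, since the groups did not overlap for any of the 32.

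**Figure D5:**
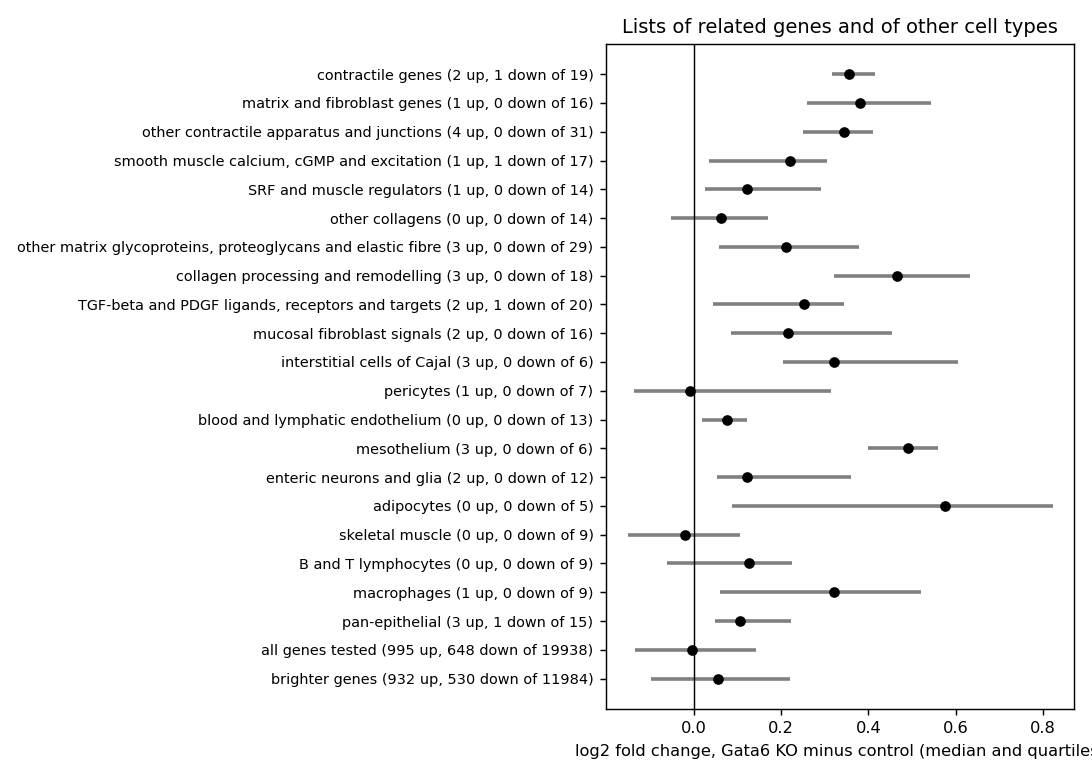
Median (point) and quartiles (bar) of the log2 fold change, Gata6 KO minus control, for each list of genes, with the number that rose or fell at a limma adjusted p under 0.05; brighter genes have a mean signal of at least 3.39. The highest medians are those of adipocytes (0.58), mesothelium (0.49), collagen processing (0.47), the matrix (0.38) and contractile (0.36) genes, other contractile apparatus (0.34), interstitial cells of Cajal (0.32) and macrophages (0.32), and those of other collagens (0.06), endothelium (0.08) and skeletal muscle (-0.02) lie near 0.

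Scaling each array to its epithelial markers left both medians above 0, took away the 3 calls of a rise and kept that of Ldb3. Of the 15 markers used, 3 were themselves called higher and 1 lower, so their mean is no plain measure of the amount of epithelium. With arrays centred on the mean of the pan-epithelial markers, the median of all genes moved to -0.15, and the medians were 0.21 for contractile and 0.24 for matrix genes. Tagln, Pgm5 and Dpt then did not pass (limma adjusted p of 0.0758, 0.0502 and 0.0817), and Ldb3 fell by 0.84 (limma adjusted p = 0.00153). By contrast, with arrays centred on their own median 5 contractile and 4 matrix genes rose.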

How the data were processed

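Total RNA of whole ileum was measured on Affymetrix mouse Gene 1.0 ST arrays, 1 per mouse. The authors deposited 1 log2 value per probe set and array, and the submitters' processing notes name Affymetrix Expression Console as the tool. Its version, background correction and normalization are not stated in the sources at hand, and base 2 was read from the range of the values. Of 35557 probe sets, 21789 had 1 gene symbol, 1621 several and 12147 were not listed; the first kind gave 19938 genes. The RefSeq table of GRCm38.p6 served for names, chromosomes and promoters.

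Genes were fitted with limma 3.58.1 in R 4.3.3 (lmFit, eBayes; 1 coefficient, two-sided; moderated SE), with Benjamini-Hochberg adjustment over all 19938 genes at a threshold of 0.05, on 3 control and 3 Gata6 KO arrays with no filter or scaling. The fit was tested on simulated arrays. Sets were described by counts and medians and given no test. All 35 genes were named, and of each related list the 2 called genes with the smallest p; others that complete a count (Sgce, Filip1l, Lamb2, Timp2, Tgfbr1, Gja1, Gpm6a, Krt19 and Ehf) were chosen for naming with their values in view. The members and lists were chosen with earlier results of these data known. The number of arrays limits the precision, and the labels describe the replicates as individual mice. The labels do not say that replicate numbers pair the mice. Deviations of same-numbered arrays from their group means correlated at 0.04, -0.04 and 0.15, and those of other pairs at -0.12 to 0.08. With 3 arrays per group, these values cannot decide whether the numbers mark a pairing. Alternatives covered scaling, a filter on dim genes, the probe set rule, moderation, array weights, a replicate block, covariates and leaving out each array. Figures were drawn with matplotlib 3.10.9.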

Additional observations from a re-analysis of the deposited data

How the results depend on the processing

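The direction of all 35 genes held in the 6 fits that leave out 1 array, but calls did not hold. For Ldb3 and the 19 genes with every KO-labelled array above the controls, such a fit could not turn the direction. The medians moved by less than the SD between mice, a mark that leaving out 1 of 3 arrays can hardly pass. Neither result therefore says much about stability. Over those fits 0 to 3 contractile and 0 to 1 matrix genes rose and 0 to 1 contractile gene fell, with 320 to 806 genes in all higher and 277 to 597 lower. At an unadjusted p under 0.05, 6 to 18 contractile and 3 to 11 matrix genes were higher. Other settings changed the calls as follows; the cause was not tested except where stated. With arrays centred on their median, 5 contractile, 4 matrix and 1562 of all genes rose. Centred on the pan-epithelial list, no gene of either set rose, 545 of all genes rose and 1841 fell, and 5 contractile and 3 matrix genes were higher at an unadjusted p under 0.05; Pdgfrb turned to -0.093, and to -0.0014 with quantile normalization. With dim genes left out, so that fewer genes were tested, 4 contractile and 3 matrix genes rose. With a trended, robust eBayes these counts were 6 and 3, and with array weights 4 contractile genes rose. With every probe set on its own, 0 matrix genes rose. Without moderation 0 genes of either set rose or fell, 168 of all genes rose and 106 fell, and 9 contractile and 3 matrix genes were higher at an unadjusted p under 0.05. A replicate block, for numbers that the labels do not say pair the mice, gave 6 matrix genes that rose, with 766 and 475 of all genes higher and lower. By correlation of deviations, control replicate 1 was nearest to Gata6 KO replicate 2 (0.08) and control replicate 2 to Gata6 KO replicate 1 (0.06). Control replicate 3 was nearest to Gata6 KO replicate 3 (0.15).

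With the mean of other contractile genes as a covariate, which shares its signal with the genes tested and leaves 3 residual degrees of freedom, 0 genes of either set rose or fell at either threshold, and 1 and 2 of all genes were higher and lower. The contractile median became -0.10 and the contractile minus matrix difference of medians -0.31. Log2 fold changes turned to -0.41 for Actg2 and for Cnn1, -0.10 for Myh11 and for Des, -0.11 for Smtn and for Myl9, -0.16 for Lmod1, -0.15 for Synpo2, -0.046 for Tpm1, -0.22 for Tpm2, -0.088 for Flna, -0.064 for Pdgfrb and -0.25 for Postn. With other matrix glycoproteins as the covariate, again 0 genes of either set passed, 27 and 22 of all genes were higher and lower, the matrix median was 0.024 and the difference of medians 0.23. Col1a1, Col1a2, Col6a1, Fn1 and Sparc turned to -0.069, -0.17, -0.071, -0.097 and -0.066. None of these turned values passed the test.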
